A study of Arabidopsis thaliana with 6 samples.

Results

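The HD-ZIP IV genes encode homeodomain leucine-zipper transcription factors that act mainly in the outermost cell layer of the plant, the L1 layer that becomes the epidermis. The members described here are 10 named Arabidopsis thaliana genes, given by identifier, of which 9 are among the 17675 genes of the deposited table. HDG3 (AT2G32370) was not analysed here. The RNA came from inflorescences of 3-week-old plants, labelled as floral meristems, of the genotype ARF3:ARF3-GR arf3-29, in which the auxin response factor ARF3 is fused to the steroid-binding domain GR and expressed from the ARF3 promoter. GR fusions are held inactive until the steroid dexamethasone (DEX) is given. In the DEX group, 3 libraries came from inflorescences treated with 10 µM DEX in DMSO, and the 3 DMSO libraries are titled with the solvent alone. Silwet L-77 at 0.015% is given for every library, DMSO included. The treatment text is the same for all samples, so the DMSO group rests on the titles. Flowers of stage 7 or older were dissected away. All libraries share the transgene, the arf3-29 background, growth at 23 °C and days of 16 h light, and the effect of the steroid itself cannot be told apart from that of ARF3-GR, since no plants lacking ARF3-GR were treated among these libraries. The comparison asks how these epidermal regulators stood after activation of ARF3-GR in the young flower.

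Proteins of this family bind a short DNA element, the L1 box, found in promoters of genes expressed in the epidermis. ATML1 and PDF2 are partly interchangeable and are needed for an epidermis to form at all, ANL2 acts in pigment accumulation and root cell organisation, and HDG1, HDG2, HDG5, HDG11, HDG12 and GL2 act in cuticle, stomata, floral organs, trichomes or root hairs. Within the family, ATML1 and PDF2, HDG11 and HDG12, and ANL2 and HDG1 are pairs of close relatives.

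Levels are reads per 1000000 reads of the listed genes (RPM), as the authors deposited them, given as mean ± SD over n = 3 libraries. Whole reads recovered from the RPM came to 10703769 to 14469527 per library, so 1 read was worth 0.0691 to 0.0934 RPM. Fold changes are on the scale of log2(RPM + 1), which understates the change of weak genes, and two-sided limma p-values were adjusted by Benjamini-Hochberg over all 17675 genes, with a threshold of 0.05. Most of the transcriptome differed between the groups: 57.7% of all genes passed, 29.6% higher and 28.1% lower in DEX (57.4% passed in edgeR), and the median log2 fold change over all genes was 0.00. Spearman correlations across genes were 0.991 among the DMSO libraries and for DEX-1 with DEX-2, but 0.985 and 0.987 for DEX-3 with its group, so values without DEX-3 are given where it matters. ARF3 RNA itself, from transgene and mutant allele alike, was 248 ± 8.64 RPM in DMSO and 144 ± 4.14 RPM in DEX, which does not report on the steroid-dependent activation of the protein. Of 6 floral meristem genes looked up as a check of the labelled tissue, AP1 had 265 RPM, LFY 87.3, AP3 192, WUS 4.1 and CLV3 2.55 RPM in DMSO, and AG was not analysed here.

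The L1 box was searched as TAAATGCA or TAAATGTA on either strand in the 250 bases before the annotated start of each gene in RefSeq TAIR10.1. Of the 9 listed members, ANL2 and HDG2 hold it, against 4.49% of all 27443 protein-coding promoters of the same length. Of 6 genes listed as L1-layer targets and markers, FDH holds it. Matches were not confined to genes that fell: among the other lists TMM and GIS2, lower in DEX, hold it, as do RBCS1A, higher in DEX, and MUTE, which did not pass. The windows of ANL2, HDG2 and FDH are shown because they are those of the family and the L1-layer list that carry the element the family binds, each on the gene's strand, 5′ to 3′, with the L1 box in capitals. No genome coordinates are given, since the deposited table names no build.
ANL2: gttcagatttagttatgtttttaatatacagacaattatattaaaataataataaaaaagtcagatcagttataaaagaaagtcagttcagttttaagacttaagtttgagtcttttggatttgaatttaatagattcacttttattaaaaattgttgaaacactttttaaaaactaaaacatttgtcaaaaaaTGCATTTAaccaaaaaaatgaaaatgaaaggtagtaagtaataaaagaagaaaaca
HDG2: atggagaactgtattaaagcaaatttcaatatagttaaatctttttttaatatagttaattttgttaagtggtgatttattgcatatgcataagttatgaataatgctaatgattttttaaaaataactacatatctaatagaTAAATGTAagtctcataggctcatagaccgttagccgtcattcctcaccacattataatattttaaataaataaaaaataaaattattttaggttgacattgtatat
FDH: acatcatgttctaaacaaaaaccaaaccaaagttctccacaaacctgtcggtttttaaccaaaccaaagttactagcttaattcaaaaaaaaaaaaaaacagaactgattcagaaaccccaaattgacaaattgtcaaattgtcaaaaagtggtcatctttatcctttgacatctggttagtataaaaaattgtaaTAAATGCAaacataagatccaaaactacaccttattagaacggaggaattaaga
The element begins 56 bases before the start of ANL2, where it lies on the opposite strand, 107 bases before HDG2 and 54 bases before FDH. In windows of 1000 bases, ATML1 also holds 1, beginning 509 bases before its start, which makes 3 of 9 members against 15.8% of all promoters. PDF1 and BDG also hold it in that window, which makes 3 of 6 L1-layer genes, and so do 2 of 3 mesophyll markers. The auxin response elements TGTCTC or TGTCGG occur within 250 bases of GL2 alone among the 9, where 14.7% of all promoters hold them, and within 1000 bases of GL2 and HDG1, where 48.3% do. Among the 6 L1-layer genes, 4 hold an auxin response element within 250 bases, FDH included, beside 14.7% of all promoters. Within 1000 bases the count is still 4 of 6, beside 48.3% of all promoters. A match is a run of letters and was not tested as a binding site.

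Of the 9 listed HD-ZIP IV genes, 8 fell in DEX and none rose. Among all genes 28.1% fell, and the members' median log2 fold change was -0.64. ATML1 alone did not pass. The count of members higher in DEX was 0 with limma, with edgeR and with DESeq2, and was also 0 in each at an unadjusted p under 0.05. For the same 8 genes every DEX library lay below every DMSO library, as it did for 30.7% of all genes. Each of the 9 had at least 1 RPM in all 6 libraries, so none owes its place in the table to a single group. In whole inflorescence tissue, fewer epidermal cells and less RNA per epidermal cell cannot be told apart.

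**Figure D1:**
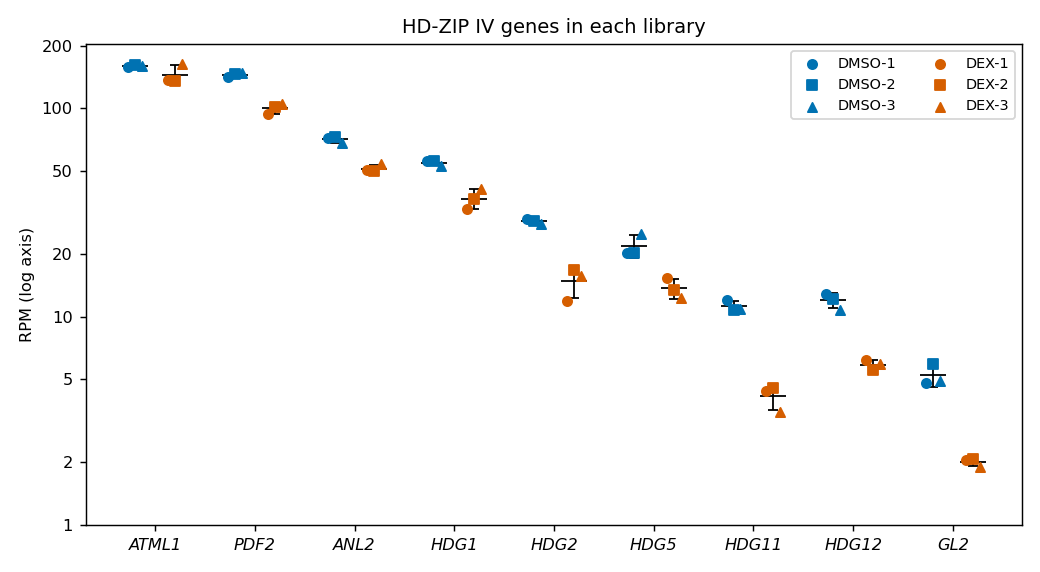
RPM of each listed HD-ZIP IV gene (log axis) in the 6 libraries, DMSO in blue and DEX in orange, with bars at the mean ± SD of 3 libraries. For ATML1 the DEX-3 value of 163 RPM lies with the DMSO values, and for the other 8 genes the groups do not overlap.

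ATML1 (AT4G21750) had 158, 162 and 159 RPM in the DMSO libraries and 137, 135 and 163 RPM in the DEX libraries. DEX-1 and DEX-2 thus lay below DMSO, while DEX-3 was the highest of all 6. The log2 difference was -0.15 (limma adjusted p = 0.107), and its 95% interval of -0.305 to 0.01 leaves room for a larger fall or for none. Without DEX-3 it was -0.23 and passed (limma adjusted p = 0.000452). With any other single library left out it lay between -0.15 and -0.10 and did not pass, with adjusted p-values of 0.175 to 0.342.

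PDF2 (AT4G04890), the close relative of ATML1, had 142, 146 and 148 RPM in DMSO and 93.6, 102 and 105 RPM in DEX. The groups were well apart, and PDF2 fell by 0.53 on the log2 scale (SE 0.0696, limma adjusted p = 4.86e-06). The mean in DEX was 69.2% of that in DMSO. Within each library, the ratio of ATML1 to PDF2 per kb of coding sequence was 1.09, 1.09 and 1.04 in DMSO and 1.42, 1.28 and 1.51 in DEX. All DEX ratios exceeded all DMSO ratios. Here and below, log2 differences of ratios and their tests use RPM + 1 of each gene, not the printed ratios per kb. For ATML1 to PDF2 the log2 difference was 0.38. The exact permutation test gave a two-sided p of 0.10, the smallest that 3 against 3 libraries allow, and 0.20 adjusted over the 4 pairs compared. DEX-3, where ATML1 stood highest, also had the highest ratio, and without it the difference was 0.33.

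ANL2 (AT4G00730) and HDG1 (AT3G61150), the next in level, moved by similar amounts. The libraries held 72, 73 and 68.2 RPM of ANL2 in DMSO and 50.3, 50.2 and 53.9 RPM in DEX. This gene, needed for anthocyanin to accumulate in the subepidermal layer, fell by 0.46 on the log2 scale (SE 0.0786, limma adjusted p = 8.69e-05). HDG1, which has been tied to cuticle formation, had 55.6, 55.7 and 53.1 RPM in DMSO and 33.0, 36.7 and 41.1 RPM in DEX. It fell by 0.56 on the log2 scale (SE 0.0937, limma adjusted p = 6.62e-05), with DEX-3 nearest to DMSO. Their ratio per kb was 1.31 ± 0.0133 in DMSO and 1.41 ± 0.112 in DEX, with overlapping groups (log2 difference 0.10, exact two-sided permutation p = 0.20, adjusted over the 4 pairs p = 0.267). Without DEX-1 that difference was 0.04.

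HDG2 (AT1G05230), which promotes trichome and stomatal differentiation, had 29.5, 28.9 and 27.8 RPM in DMSO and 11.9, 16.7 and 15.7 RPM in DEX. The DEX mean was 51.3% of the DMSO mean, with DEX-1 the lowest library (log2 fold change -0.93, SE 0.128, limma adjusted p = 8.14e-06). HDG5 (AT5G46880), which RefSeq lists as HB-7 and which acts with PDF2 in floral organ development, had 20.3, 20.3 and 25 RPM in DMSO and 15.3, 13.4 and 12.3 RPM in DEX. It fell by 0.64 on the log2 scale (SE 0.13, limma adjusted p = 0.000456), DMSO-3 being the highest library. The ratio of HDG2 to HDG5 per kb was 1.52 ± 0.217 in DMSO and 1.26 ± 0.322 in DEX and did not separate the groups (log2 difference -0.29, exact two-sided permutation p = 0.30, adjusted over the 4 pairs p = 0.30). It was -0.07 without DEX-1.

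Among the weakest members, the trichome regulators HDG11, HDG12 and GL2, DEX means were 37.0% to 49.2% of DMSO means. HDG11 (AT1G73360), known for limiting trichome branching and for drought tolerance when overexpressed, had 12, 10.8 and 10.9 RPM in DMSO and 4.39, 4.56 and 3.50 RPM in DEX. These are 138 to 149 reads against 47 to 66 reads. Its log2 fold change of -1.25 (SE 0.163, limma adjusted p = 4.52e-06) was the lowest of the 9, and 2.61% of all genes had one as low or lower. HDG12 (AT1G17920), its close relative, had 12.9, 12.2 and 10.8 RPM in DMSO and 6.17, 5.53 and 5.95 RPM in DEX, and fell by 0.91 on the log2 scale (SE 0.151, limma adjusted p = 6.28e-05). The ratio of HDG11 to HDG12 per kb was 0.886, 0.843 and 0.959 in DMSO and 0.678, 0.785 and 0.560 in DEX. It was lower in every DEX library. On RPM + 1 of each gene the log2 difference was -0.34, at the smallest exact two-sided permutation p of 0.10 (adjusted over the 4 pairs p = 0.20). The difference was -0.19 with a pseudocount of 5 RPM.

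GL2 (AT1G79840), required for trichome growth and for the hairless cell files of the root, had 4.82, 5.94 and 4.90 RPM in DMSO and 2.06, 2.07 and 1.89 RPM in DEX. In reads these are 60 to 81 against 22 to 30, and no DEX library came near a DMSO library (log2 fold change -1.05, SE 0.19, limma adjusted p = 0.000159). The size of the change of such weak genes moves with the pseudocount: with 0.1 RPM in place of 1 RPM it was -1.33 for GL2 and -1.42 for HDG11, and with 5 RPM it was -0.54 and -0.83. All of these passed.

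**Figure D2:**
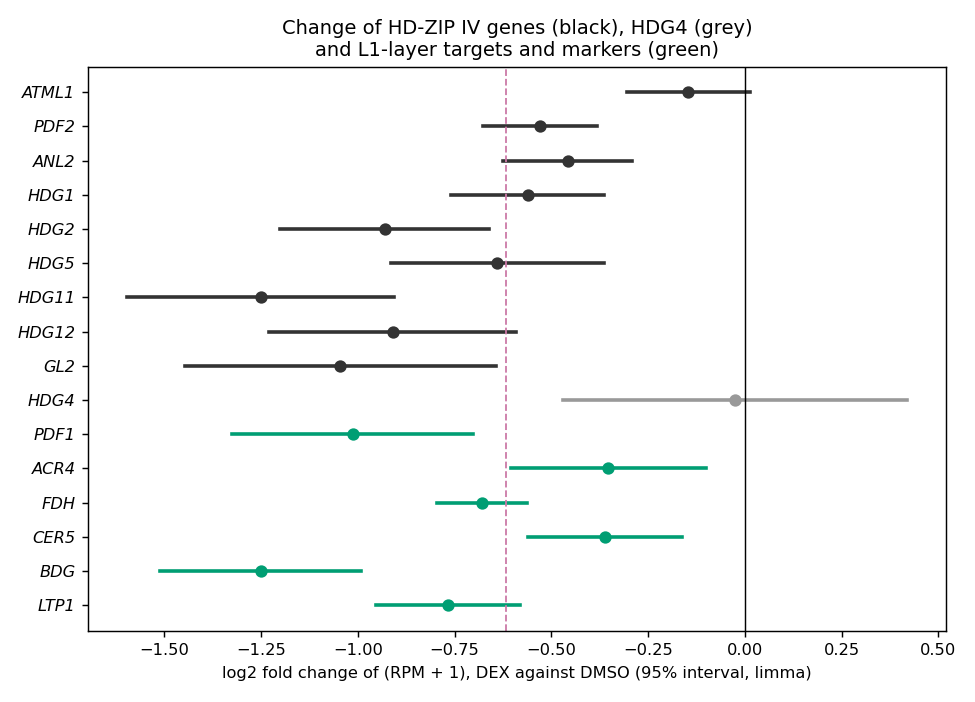
Log2 fold change of RPM + 1, DEX against DMSO, with 95% intervals from limma, for the 9 HD-ZIP IV genes (black), HDG4 (grey) and 6 L1-layer targets and markers (green). Intervals of ATML1 and HDG4 include 0 and all others lie below it, and the dashed line marks -0.62, the median of all genes that fell.

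Among the other 6 genes of the 16-gene family, HDG4 (AT4G17710) was in the table, and HDG7, HDG8, HDG9, HDG10 and FWA were not analysed here. HDG4 was weak and similar in both groups, with 1.61, 2.20 and 1.98 RPM in DMSO and 1.78, 1.94 and 1.89 RPM in DEX. Its log2 difference was -0.03, with a 95% interval of -0.47 to 0.42 that includes changes as large as that of ANL2 (limma adjusted p = 0.929).

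Per kb of the longest annotated coding sequence, 2064 to 2481 bases in the 9 genes, the order of levels was the same in 5 of the 6 libraries: ATML1 first, followed by PDF2, ANL2, HDG1, HDG2, HDG5, HDG12, HDG11 and GL2. In DEX-1, HDG5 stood above HDG2 (6.18 against 5.48 RPM per kb). In DMSO the levels ran from 69.8 ± 0.979 RPM per kb for ATML1 and 65.0 ± 1.49 for PDF2, through 29.5 ± 1.05 for ANL2 and 22.6 ± 0.602 for HDG1, to 2.24 ± 0.267 for GL2. Neighbours lay close in DMSO for HDG12 and HDG11 (5.79 ± 0.502 and 5.17 ± 0.305 RPM per kb) and in DEX for HDG2 and HDG5 (6.81 ± 1.17 and 5.51 ± 0.613 RPM per kb), where the means differ by about the SDs. The first places depend on the length used: per kb of all annotated exons, a choice made after the data were seen, PDF2 stood above ATML1 in DMSO (40.4 against 35.7 RPM per kb) and below it in DEX (28.0 against 32.3), and HDG5 stood above HDG2 in DEX (4.04 against 3.57).

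Summed over the 9 genes, the level was 222 ± 1.93 RPM per kb of coding sequence in DMSO and 163 ± 11.1 in DEX. The DMSO libraries held 221 to 224 and the DEX libraries 154 to 175, with DEX-3 the highest of the latter. The make-up of the sum differed as well. ATML1 made up 31.4 ± 0.168% of it in DMSO and 38.8 ± 1.85% in DEX, while HDG2 went from 5.98 ± 0.180% to 4.18 ± 0.630%, HDG11 from 2.33 ± 0.151% to 1.19 ± 0.229% and GL2 from 1.01 ± 0.111% to 0.532 ± 0.0600%. ANL2 made up 13.3 ± 0.409% in DMSO and 13.1 ± 0.406% in DEX. Across the 9 genes the members with higher levels per kb in DMSO had the less negative log2 fold changes (Spearman 0.917 across genes that share the same libraries, and 0.817 to 0.95 with pseudocounts of 5 and 0.1 RPM). HDG4, outside the 9, went against this order. Its level in DMSO was below that of GL2, at 0.905 ± 0.14 RPM per kb, and its log2 difference was -0.03. Genes are not independent replicates, and the order among the 9 is a description.

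**Figure D3:**
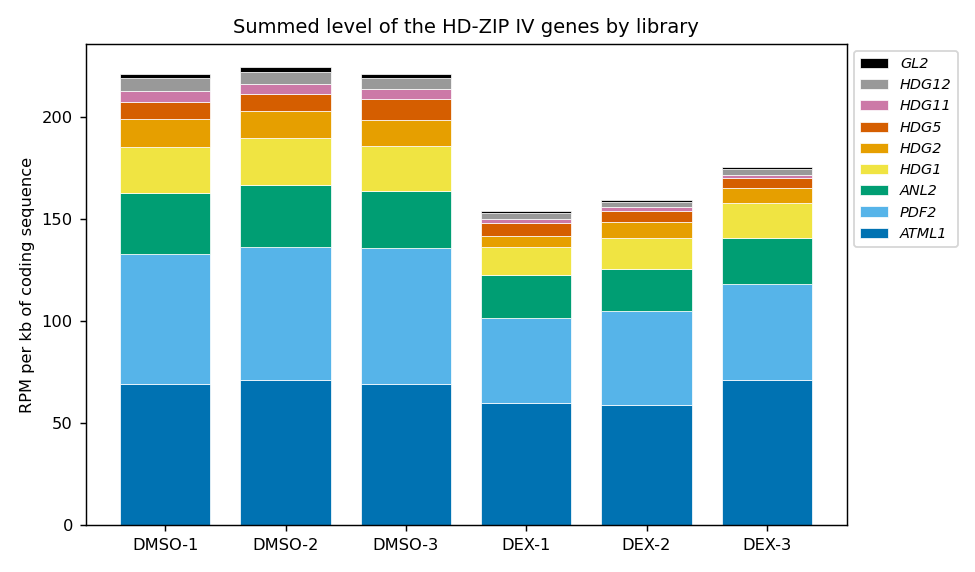
Levels of the 9 HD-ZIP IV genes in RPM per kb of coding sequence, stacked for each library. The stacks reach 221 to 224 in DMSO and 154 to 175 in DEX, and ATML1 makes up 31.4% of the stack on average in DMSO and 38.8% in DEX.

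**Figure D4:**
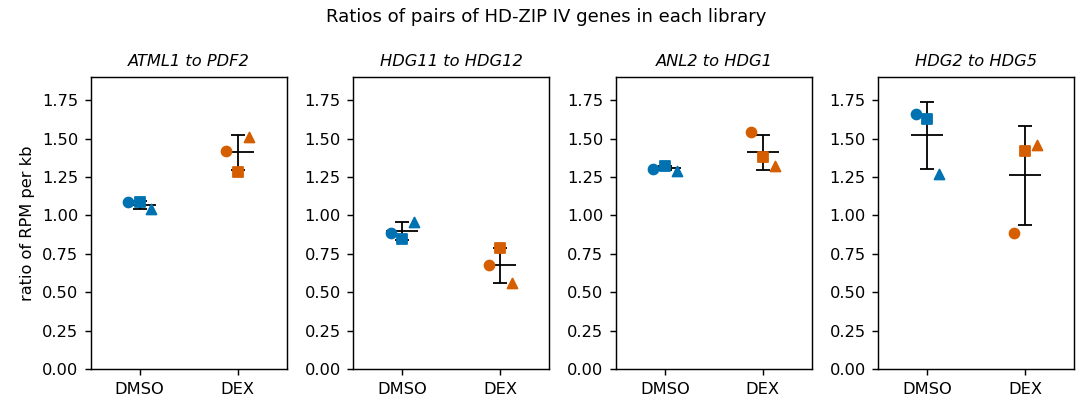
Ratios of RPM per kb of coding sequence within each library for 4 pairs of HD-ZIP IV genes, with the mean ± SD of 3 libraries. DMSO and DEX libraries do not overlap for ATML1 to PDF2 or for HDG11 to HDG12, and they overlap for the remaining pairs.

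The genes whose profile over the 6 libraries was most like that of ATML1, among 14195 others with a mean of at least 5 RPM, were AT5G64270, AT5G53340 and GDU3 (AT5G57685), with Pearson r of 0.995, 0.987 and 0.987 on the log2 scale. In all 3, as in ATML1, DEX-1 and DEX-2 lay below every DMSO library and DEX-3 did not. They were picked for likeness to ATML1 over only 6 libraries, so this shared pattern follows from the choice. AT5G64270, for example, had 166, 168 and 166 RPM in DMSO and 142, 142 and 168 RPM in DEX. Of the 7 other members at that level (GL2 is not), HDG1 had the highest r to ATML1, 0.806, and HDG5 the lowest, 0.439. All these values share libraries and treatment groups.

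Genes known as targets or markers of the L1 layer fell together with the family. Of the 6 in the list, 6 fell, with no overlap between the groups in any, where 28.1% of all genes fell and 30.7% lay lower without overlap. Their median log2 fold change was -0.72. PDF1 (AT2G42840), a cell-wall protein of the protoderm, had 3186, 3715 and 3251 RPM in DMSO and 2048, 1995 and 1144 RPM in DEX (log2 fold change -1.01, limma adjusted p = 1.52e-05). DEX-3 was its lowest library, as it was for the lipid-transfer gene LTP1 (AT2G38540), and ATML1 was highest in that same library. Without DEX-3 the log2 fold change of PDF1 was -0.74. BDG (AT1G64670), an enzyme of the cuticle, fell from 58.5 ± 4.81 to 24.3 ± 5.25 RPM and LTP1 from 4212 ± 169 to 2496 ± 402 RPM.

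FDH (AT2G26250), a fatty acid elongase that keeps epidermal surfaces from fusing and whose promoter holds the L1 box printed above, had 574, 567 and 569 RPM in DMSO and 361, 360 and 347 RPM in DEX. The replicates lay within a few percent of each other, and FDH fell by 0.68 on the log2 scale (SE 0.055, limma adjusted p = 1.22e-08). CER5 (AT1G51500), a wax exporter, fell from 34.9 ± 0.534 to 27 ± 0.989 RPM. The receptor kinase gene ACR4 (AT3G59420) went from 22.3 ± 1.06 to 17.3 ± 2.1 RPM (limma adjusted p = 0.0182), a call lost without DMSO-1 (adjusted p = 0.0502), DMSO-2 (0.0699) or DEX-1 (0.0786).

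In epidermal specification signalling, 4 of 6 listed genes fell and RPK1 rose, beside 28.1% and 29.6% of all genes. LGO, a cell-cycle inhibitor of giant sepal cells, did not pass (log2 difference -0.34, limma adjusted p = 0.101). ALE2 (AT2G20300), a receptor-like kinase needed for the protoderm, had 77.1, 65.7 and 67.8 RPM in DMSO and 36.3, 34.8 and 36.5 RPM in DEX (log2 fold change -0.95, limma adjusted p = 6.35e-08). DEK1 (AT1G55350), a membrane calpain, fell from 50 ± 3.57 to 36.3 ± 1.07 RPM. The related receptor kinases RPK2 (AT3G02130) and RPK1 (AT1G69270) moved apart, RPK2 from 39.7 ± 4.49 down to 26 ± 3.49 RPM and RPK1 from 18.8 ± 0.542 up to 29.2 ± 2.34 RPM. The remaining call was ACR4, which stands in both lists, and ALE1, GSO1 and GSO2 were not analysed here.

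Trichome and epidermal patterning genes, the setting in which GL2 is best known, moved less uniformly. Of 9 listed of 20, 4 fell and 1 rose, with a median of -0.05, and 44.4% lower stands beside 28.1% of all genes. The repressor gene TCL1 (AT2G30432) went down from 10.3 ± 2.14 RPM to 3.58 ± 0.798 RPM (limma adjusted p = 1.6e-05, log2 fold change -1.30) and the bHLH gene EGL3 (AT1G63650), an activator upstream of GL2, from 14 ± 0.619 RPM to 7.63 ± 0.532 RPM (limma adjusted p = 0.000113, log2 fold change -0.80). TTG2 and GIS2 passed at limma adjusted p-values of 0.0338 and 0.0285. TTG2 did not pass without DMSO-1, DMSO-2, DEX-1 or DEX-3 (adjusted p = 0.0556 to 0.113), nor did GIS2 without DMSO-1, DMSO-2, DEX-1 or DEX-2 (adjusted p = 0.0517 to 0.119). SIM, the gene that rose (limma adjusted p = 0.0325), had overlapping groups and did not pass without DMSO-1, DMSO-3, DEX-1 or DEX-2 (adjusted p = 0.0828 to 0.20), its log2 difference being 0.41 with all libraries, 0.25 without DEX-2 and 0.64 without DEX-3, where it passed. Activators GL1, GL3 and MYB23 were not analysed here, while TTG1, TRY, CPC and ETC3 did not pass, with log2 differences of 0.15, 0.12, -0.05 and 0.05.

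Of the root-hair genes that act downstream of GL2 in the root, 3 of 8 were listed. Of these 1 fell, which is 33.3% beside 28.1% of all genes. It was LRL2 (AT4G30980), a bHLH gene, with 22.3, 20.5 and 25.2 RPM in DMSO and 10.7, 7.26 and 4.55 RPM in DEX, with no overlap (limma adjusted p = 4.55e-06, log2 fold change -1.54). LRL1 and PLDP1 had log2 differences of -0.04 and 0.15 and did not pass. Among regulators of cuticle and conical cells, 3 of 5 were listed and 1 fell, again 33.3% beside 28.1% of all genes. MYB16 (AT5G15310) had 49.4 ± 1.77 and 48.2 ± 3.86 RPM, a log2 difference of -0.04 with an interval of -0.22 to 0.15. For SHN3 the log2 difference was 0.08 (limma adjusted p = 0.747), and neither gene passed. SHN1 (AT1G15360) had 73.8, 80.8 and 84.6 RPM in DMSO and 75.9, 67.8 and 41.1 RPM in DEX. Its call (limma adjusted p = 0.0281) was lost without DEX-3 (log2 difference -0.15, adjusted p = 0.082), DMSO-2 (0.0811) or DMSO-3 (0.121).

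**Figure D5:**
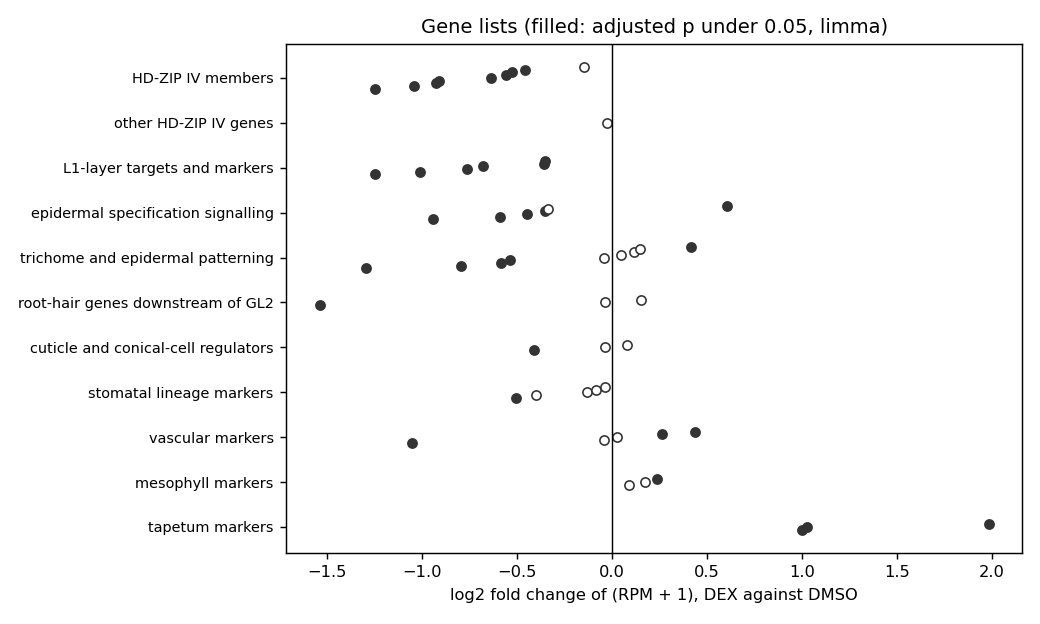
Log2 fold change of RPM + 1, DEX against DMSO, of each listed gene in 11 lists, filled where the limma adjusted p is under 0.05. The HD-ZIP IV genes run from -1.25 to -0.15 and the L1-layer list from -1.25 to -0.35. In the tapetum list, ATA7 and AMS are in the table through DEX alone, so they had to differ and are not counted.

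Markers of other cell types included genes higher and genes lower in DEX. In the stomatal lineage, itself epidermal, TMM (AT1G80080) fell from 131 ± 5.50 to 92.1 ± 5.70 RPM (limma adjusted p = 1.21e-05) and the other 4 markers did not pass. Thus 20% of the 5 markers were lower, beside 28.1% of all genes. The 5 summed to 164 to 178 RPM in DMSO and 118 to 138 RPM in DEX, most of it TMM. FAMA passed once the intensity trend was dropped from limma (adjusted p = 0.0195). Of 5 vascular markers, SUC2 and APL rose and XCP1 fell, a share of calls close to the 57.7% of all genes, with sums of 80.2 to 84.8 and 86.1 to 92.3 RPM. The call of SUC2 was lost without DMSO-3 (limma adjusted p = 0.0751) and that of APL without DMSO-1 (0.0889), DMSO-2 (0.0566) or DEX-3 (0.0671). Mesophyll markers summed to 4503 to 4796 RPM in DMSO and 5007 to 5802 RPM in DEX. RBCS1A was higher (log2 fold change 0.23, limma adjusted p = 0.00478) and 2 of 3 were not called, where 29.6% of all genes were higher. Without DEX-3, LHCB2.1 also passed, at 0.36 (adjusted p = 1.25e-06). Of the markers of the tapetum, the anther's inner layer, A9 rose from 4.07 ± 0.403 to 9.36 ± 1.17 RPM (limma adjusted p = 5.91e-05). ATA7 and AMS reached 1 RPM in no DMSO library and are in the table through DEX alone, so they had to differ and are not counted. Their levels were 0.401 ± 0.37 and 0.593 ± 0.194 RPM in DMSO and 4.49 ± 1.02 and 2.27 ± 0.936 RPM in DEX. DYT1 was not analysed here. The part of these other cell types in the fall of the HD-ZIP IV genes was not tested.

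Some read assignments are uncertain. No run of 50 bases is shared between the annotated exons of any pair of the 10 members, and of 25-base runs at most 0.406% of a member's are shared with any other. GL2 exons overlap 198 exon bases of AT1G79850 on the opposite strand, a gene with 421 RPM in DMSO and 299 RPM in DEX, and HDG2 and HDG12 exons overlap long noncoding RNAs on the opposite strand over 1082 and 280 bases. The use of strand is not given in the sources used here, so reads of these partners cannot be told apart from those of the members. GL2 also shares 155 exon bases with a long noncoding RNA on its own strand, AT1G09927, which strand would not separate.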

How the data were processed

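The authors deposited 1 table of reads per 1000000 (RPM) for 6 libraries, 3 DMSO and 3 DEX, which sum to that number over the 17675 listed genes. The submitters' processing notes name TopHat and HTSeq. For strand use, genome build and settings, the labels and the table header give nothing. Every listed gene has at least 1 RPM in 3 libraries. Dividing by the value of 1 read gave whole reads for 100% of values, within 0.01 reads. Groups and replicate numbers come from the sample titles, and nothing says that replicates came from separate plants, and the spread that p-values measure may therefore be technical. No replicates were merged, since all pairs exceeded sampling noise (chi-square over its degrees of freedom, 2.79 to 12).

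The test was limma 3.58.1 in R 4.3.3 on log2(RPM + 1) with an intensity trend, over the whole table, at an adjusted p of 0.05. Alternatives were other pseudocounts, filters, scalings and moderation, edgeR 4.0.16 (which called 10146 genes, against 10204) and DESeq2 1.42.0 on recovered reads, a replicate block and leaving out each library. Ratios were tested by exact permutation over libraries, as differences of log2(RPM + 1) between the 2 genes of a pair. The members are given by identifier, and they, the gene lists and the tests were chosen with earlier results of these data known. Named genes are all listed family genes, up to 4 called genes of each other list by size of change (the 2 of smallest p where none passed) and the 3 genes most like ATML1. Others were named after their values were seen. RefSeq TAIR10.1 gave names for 17646 of the identifiers, exon lengths and promoter windows.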

Additional observations from a re-analysis of the deposited data

How the results depend on the processing

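The fall of 8 HD-ZIP IV genes and the rise of 0 held in 15 of the 17 alternatives. With a minimum of 5 RPM in 3 libraries 7 fell, since GL2 is removed by that minimum, and without DEX replicate 3 all 9 fell, ATML1 included, so the range with 1 library left out was 8 to 9. Each of these 8 genes passed under every alternative in which it was tested, the highest adjusted p being 0.00634 (HDG5). With 1 library left out, 4711 to 5336 of all genes rose and 4323 to 5076 fell. No direction among the listed HD-ZIP IV genes that passed reversed. The replicate numbers are shared by the groups, but same-numbered libraries deviated together with correlations of only -0.0745, 0.103 and 0.0384, so they are taken as sharing a number alone. With the replicate block the counts were again 8 lower and 0 higher, and 5264 genes rose and 4991 fell over the whole table. The pair ratios kept their direction with other pseudocounts and with any 1 library left out. Counting error bears most on GL2, with 22 to 81 reads per library.

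Among the other lists, counts rest on few genes. With 1 library left out, 2 to 4 trichome genes fell and 0 to 1 rose, 5 to 6 L1-layer genes fell, 3 to 4 signalling genes fell, and 0 to 1 cuticle regulators fell. With a minimum of 5 RPM, 2 trichome genes fell, because weaker ones are removed. SIM, SHN1 and RBCS1A did not pass once the intensity trend was dropped from limma (adjusted p = 0.106, 0.142 and 0.0716), while FAMA then passed, which made 2 stomatal markers lower in place of 1. SHN1 did not pass with robust moderation (0.189) or DESeq2 (0.221), TTG2 not with edgeR (0.0502) or DESeq2 (0.0626), and GIS2 not with DESeq2 (0.0506). The cause was not tested.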
